A study of Homo sapiens with 20 samples.

Results

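Most of the genes described here encode structural subunits of the 5 complexes of oxidative phosphorylation. They are the 100 protein-coding genes, of 55159 genes listed in any of 3 count tables, whose symbols belong to the NDUFA, NDUFB, NDUFC, NDUFS and NDUFV series, SDHA to SDHD, the UQCR series, the lettered COX4 to COX8 subunits, the ATP5 series, or the MT-ND, MT-CO, MT-CYB and MT-ATP genes of mitochondrial DNA. The choice was made by symbol, with earlier results of these data known. Of the 100 genes, 13 are mitochondrially encoded and 87 are nuclear. Complex I has 37 nuclear and 7 mitochondrial members, complex II has 4 nuclear members and none from mitochondrial DNA, complex III has 9 and 1, complex IV has 17 and 3, and complex V has 20 and 2. NDUFA4 and its paralog NDUFA4L2 are counted with complex IV, where the NDUFA4 protein resides. COX4I1 and CYC1 are subunits whose symbols lie outside the rule, and they were not included.

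All 20 libraries are RNA-seq of HEL cells, an erythroleukaemia line that carries the JAK2 V617F mutation, and they form 10 groups of 2. In the first table, cells received the solvent DMSO or 1 µM BCI, an inhibitor of the dual-specificity phosphatases DUSP1 and DUSP6, for 4 h or 48 h. In the second table, cells received DMSO, 10 µM BI-D1870, an inhibitor of the RSK kinases, or both BI-D1870 at 10 µM and BCI at 1 µM, for 24 h. The third table holds parental HEL cells and 2 derived populations, ruxolitinib-persistent (RuxP) and fedratinib-persistent (FedP), obtained by prolonged culture with those JAK2 inhibitors. Every group is the same cell line, and the labels do not say that either persistent population was derived more than once, so a difference between populations cannot be told apart from a difference between derivations. The labels do not say whether duplicates came from separate cultures, so the p-values speak only to the variation among the sequenced libraries, which may be technical.

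The respiratory chain passes electrons from NADH through complex I, or from succinate through complex II, to coenzyme Q, then through complex III to cytochrome c and through complex IV to oxygen. Complexes I, III and IV pump protons, and complex V, the ATP synthase, uses the returning protons to make ATP. Mitochondrial DNA encodes hydrophobic core subunits of complexes I, III, IV and V and is transcribed inside the organelle as long polycistronic RNAs from both strands, whereas the remaining subunits and every subunit of complex II are transcribed in the nucleus and imported as proteins.

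Some mitochondrial genes share bases, which limits how far their counts can be separated. The 3 overlaps between neighbouring members are shown because MT-ATP8, MT-ND4L and MT-CO3 are read below beside the partners they touch. They are given 5′ to 3′ on the plus strand of GRCh38, with the bases that belong to both genes in capitals and 20 bases on either side.
MT-ATP8 into MT-ATP6, chrM:8507-8592: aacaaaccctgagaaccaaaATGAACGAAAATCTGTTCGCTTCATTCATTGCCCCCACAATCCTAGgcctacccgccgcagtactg
MT-ND4L into MT-ND4, chrM:10740-10786: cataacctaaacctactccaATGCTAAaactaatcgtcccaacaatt
MT-ATP6 into MT-CO3, chrM:9187-9227: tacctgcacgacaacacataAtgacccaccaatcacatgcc
The first 2 genes share 46 bases, the next pair 7 bases and the last pair 1 base. MT-ATP8 is short and comes from the same precursor as MT-ATP6. Reads over the shared stretch could therefore be assigned to either gene or to neither. MT-ND6 is the only member on the other strand of mitochondrial DNA, and with the strand setting not given, its reads cannot be told apart from those of the opposite precursor.

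Library totals ran from 63916850 to 84452743 counts in the BCI table, from 54141164 to 70128404 in the BI-D1870 table and from 51799814 to 79755715 in the persistent-line table. At these depths 3 counts corresponded to between 0.035 and 0.060 CPM, the unit used below for counts scaled to a common library size. The lineage genes GATA1 (91.6 to 288 CPM) and ITGA2B (762 to 2309.5 CPM) were expressed in every library, as were the other erythroid markers and the megakaryocyte markers GP1BA and PF4, which in the persistent-line table ran from 79.3 to 484 and from 1.54 to 54.1 CPM. Of the markers of other cells, CD3E, MS4A1, MPO and CD14 stayed below 1 CPM, and EPCAM and COL1A1 at or below 1.43 CPM, while CD79A reached 7.88, LYZ 54.3, KRT18 26.7 and PECAM1 708 CPM. Their part in the results was not tested. In the persistent-line table the parental libraries stood apart from each other: all 13 mitochondrial members were higher in replicate 2 than in replicate 1, with a median gap of 0.63 on the log2 scale. The median gap was -0.13 between the RuxP libraries and 0.00 between the FedP libraries. The mitochondrial genes are also resembled by inserted copies in the nuclear genome. The BCI and BI-D1870 tables list 386 such copies, which held 3.26 to 4.94 counts for every 100 counts of mitochondrial mRNA genes, and the persistent-line table lists none. Levels are therefore not tested across tables.

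The mitochondrial members were far more abundant per length than the nuclear ones in every table. Per kilobase of annotated exon, their mean level had a median of 2006 CPM in the BCI table (997 to 5149 over the 13 genes), 2555 CPM in the BI-D1870 table (498 to 5897) and 11199 CPM in the persistent-line table (5062 to 19868). The nuclear medians were 20.4, 22.6 and 15.5 CPM per kilobase. The length merges the annotated exons of all transcripts of a gene, so a gene with long or many annotated forms has a lower value per kilobase. By this length the most abundant nuclear member was ATP5F1B, the catalytic beta subunit of the ATP synthase, at 478, 450.5 and 202 CPM per kilobase in the 3 tables. In the persistent-line table UQCRB, with 9.715 kb of such exon, had more CPM than ATP5F1B (499.8 against 468.9) but only 51.4 CPM per kilobase. By CPM the leading nuclear member of each complex in the BI-D1870 table was NDUFB9 of complex I (170.0), SDHA, the flavoprotein of complex II (169.6), the complex III core protein UQCRC1 (237), COX5A of complex IV (206) and ATP5F1B (1046).

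The 13 mitochondrial genes together took 2.94% and 2.98% of counts with DMSO at 4 h, 2.52% and 3.43% with BCI at 4 h, 3.04% and 3.77% with DMSO at 48 h, and 2.73% and 3.66% with BCI at 48 h. In the 24 h experiment they took 2.82% in both DMSO libraries, 4.58% and 4.64% with BI-D1870, and 4.00% and 3.67% with BI-D1870 and BCI. They took 12.3% and 18.4% in parental cells, 19.1% and 17.4% in RuxP and 9.67% and 9.64% in FedP. BI-D1870 libraries were above their DMSO controls with or without BCI, the BCI libraries overlapped their controls at both times, and the FedP libraries were below the other 4 libraries of their table. The nuclear members together took only 0.516% to 0.795% of counts in any library. These are shares of a bulk library, in which fewer cells with active mitochondrial transcription and less mitochondrial RNA per cell cannot be told apart.

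**Figure D1:**
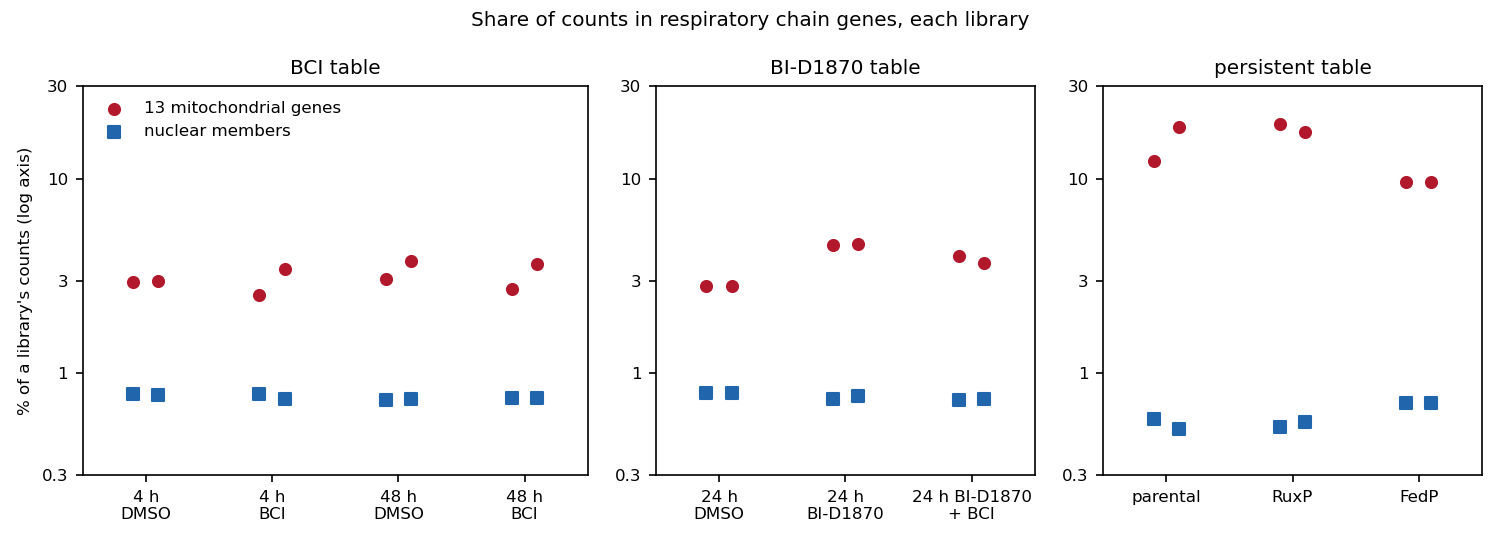
Share of all counts, in percent, held by the 13 mitochondrially encoded members and by the nuclear members in each of the 20 libraries, with 1 point a library and groups along the horizontal axis. The mitochondrial share is 4.58% and 4.64% with BI-D1870 against 2.82% in both of its DMSO libraries, and 9.67% and 9.64% in FedP against 12.3% to 19.1% in the other lines.

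With BI-D1870 for 24 h all 13 mitochondrial members rose, and the nuclear members moved in both directions around no net change. The median log2 fold change against DMSO was 0.72 for the mitochondrial members and 0.01 for the 82 nuclear members tested, beside -0.01 over all 21328 genes tested. With edgeR's quasi-likelihood test and Benjamini-Hochberg adjusted p under 0.05 over all genes, 13 of 13 mitochondrial members rose, and of the nuclear members 19 rose and 24 fell. Over all genes, 22.8% were called higher and 24.3% lower in this comparison, so the nuclear share called higher (19 of 82) and lower (24 of 82) was near that of all genes. All 13 mitochondrial calls held under each alternative processing and with each library left out. When library scaling left out the mitochondrial genes, the nuclear split became 27 higher and 23 lower. Over all genes that scaling called 24.6% higher and 22.6% lower. Every mitochondrial member was higher in both BI-D1870 libraries than in both DMSO libraries, as were 34.2% of all genes tested, while 36.3% were lower in both.

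MT-CYB, cytochrome b and the only mitochondrial subunit of complex III, had 1545 and 1619.7 CPM with DMSO, 3093 and 3157 with BI-D1870, and 2875 and 2589 with BI-D1870 and BCI. It had the largest rise, 0.98 on the log2 scale (SE 0.04, adjusted p = 5.24e-13). MT-CO2, the complex IV subunit that accepts electrons from cytochrome c, had 2870 and 2753 CPM with DMSO, 5072 and 5122 with BI-D1870, and 4483 and 3902 with the combination. MT-CO2 rose by 0.86 (SE 0.05), and its combination libraries lay between those of the other groups without overlap, as did those of MT-CYB.

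The 7 complex I genes rose by 0.55 to 0.85. MT-ND4, a membrane-arm subunit of the proton pump, had 4634 and 4517 CPM with DMSO, 7688 and 7551 with BI-D1870, and 6069.6 and 5415 with the combination, a rise of 0.74 (SE 0.04) with BI-D1870 alone. MT-ND3, a small subunit at the junction of the arms, rose by 0.85 (SE 0.06), and MT-ND2 by 0.79 and MT-ND1 by 0.69. MT-ND4L, which shares its end with MT-ND4, rose by 0.59. MT-ND5, at 2877 and 2878 CPM with DMSO and 4262.5 and 4161 with BI-D1870, had the smallest rise of the 13, at 0.55 (SE 0.04). The light-strand gene MT-ND6 rose by 0.56, from 709 and 661 CPM to 1025.5 and 990.4, beside 0.55 for its heavy-strand neighbour MT-ND5.

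MT-CO1, the catalytic subunit of complex IV, had 5778.5 and 6009 CPM with DMSO and 9247 and 9369.9 with BI-D1870, a rise of 0.66 (SE 0.03), and MT-CO3 rose by 0.70. Of the ATP synthase genes, MT-ATP6 rose by 0.72 (SE 0.05). MT-ATP8, the least abundant, had 88.9 and 60.5 CPM with DMSO and 136 and 157 with BI-D1870, and its rise of 0.98 had the largest error of the 13 (SE 0.14). In this table MT-ATP8 held only 2.62 to 4.03 counts per 100 of MT-ATP6, against 8.94 to 10.7 in the BCI table and 14.2 to 19.6 in the persistent-line table.

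**Figure D2:**
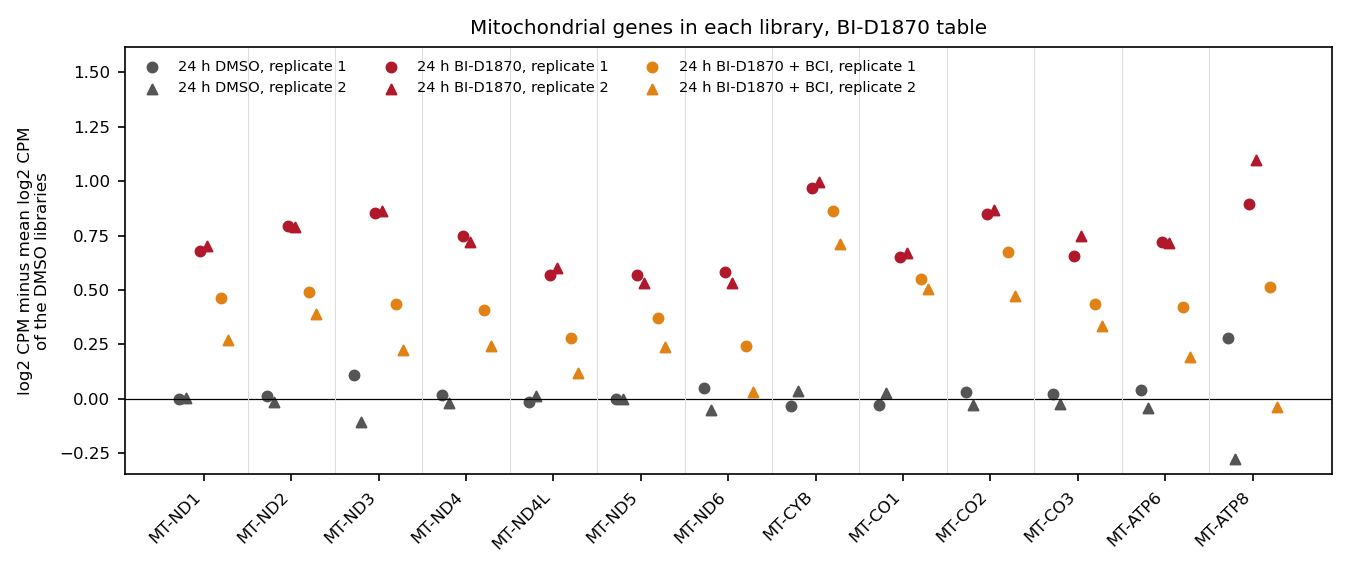
Level of each mitochondrially encoded member in the 6 libraries of the 24 h experiment, with 1 point a library coloured by treatment. The vertical axis is log2 CPM minus the mean log2 CPM of the DMSO libraries. Both BI-D1870 libraries lie above both DMSO libraries for all 13 genes, and the combination lies between them or overlaps DMSO only for MT-ND6 and MT-ATP8.

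The mitochondrial ribosomal RNAs, which are no members, moved with these mRNAs. Their share of counts was 0.760% and 0.823% with DMSO, 1.59% and 1.56% with BI-D1870, and 1.72% and 1.61% with the combination. The share of counts in replication-dependent histone genes, whose mRNAs mostly lack a poly(A) tail, moved too: it was 0.00638% and 0.00715% with DMSO, 0.0218% and 0.0211% with BI-D1870, and 0.0205% and 0.0199% with the combination. The part of RNA preparation in the mitochondrial rise was not tested.

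The nuclear members of complex I split in direction with BI-D1870, with 9 higher and 12 lower of 36 tested. NDUFA2, an accessory subunit, had 12 CPM in both DMSO libraries, 19.7 and 20.5 with BI-D1870, and 18.2 and 18.0 with the combination, a rise of 0.74 (SE 0.08, adjusted p = 1.90e-07). NDUFC2, another accessory subunit of the membrane arm, rose by 0.71, from 14.4 and 13.3 to 21.5 and 23.9 CPM, though it shares sequence with the read-through gene NDUFC2-KCTD14, whose counts were 0 in all libraries. NDUFV3, a subunit of the NADH-binding module, rose by 0.46 from a higher level, 122 and 117 CPM, to 165 and 165. Opposite to these, NDUFA9, beside the coenzyme Q site, fell by 0.46 (SE 0.08, adjusted p = 0.000111), from 20.3 and 22.8 to 16 and 15.5 CPM, and the accessory subunit NDUFC1 fell by 0.39. In each of these genes both treated libraries lay on 1 side of both controls.

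The nuclear calls in complexes II and III also went in both directions, beside 22.8% of all genes called higher and 24.3% lower. Of the 4 complex II genes only SDHB, the iron-sulfur subunit, passed the test, with a fall of 0.28 (SE 0.05) from 144 and 140 CPM to 117 and 115. In complex III, UQCRQ rose by 0.24, and UQCR10 and the core protein UQCRC2 fell by 0.27 and 0.17. The call for UQCRC2 was lost without BI-D1870 replicate 2.

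In complex IV, 6 of the 14 nuclear members tested rose and 1 fell, whereas the nuclear calls of the other complexes held more falls than rises. The difference between complexes was not tested. COX6A1, the widely expressed form of a regulatory subunit, had 28.1 and 25.4 CPM with DMSO, 43.8 and 47.1 with BI-D1870, and 32.1 and 30.8 with the combination. It rose by 0.77 with BI-D1870 (SE 0.07, adjusted p = 9.88e-09), the largest rise of a nuclear member. COX8A, the smallest subunit, rose by 0.52, from 36.4 and 37.8 to 53.6 and 52.5 CPM, and COX7A2L, which joins complex IV to complex III, rose by 0.25. COX6C and COX7A2 rose by 0.21 and 0.20, and NDUFA4 by 0.20, a call lost without BI-D1870 replicate 1. The single fall was COX7B, by 0.23, lost without DMSO replicate 1.

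In complex V, 3 of 19 members rose and 8 fell. ATP5MC1 had 87.4 and 98.1 CPM with DMSO, 59.9 and 60.0 with BI-D1870, and 51.8 and 57.9 with the combination, a fall of 0.63 with BI-D1870 (SE 0.06, adjusted p = 3.90e-08). It is 1 of 3 genes that encode the same mature c subunit of the membrane rotor. The second, ATP5MC2, fell by 0.19, from 292 and 285 to 253 and 251 CPM, and the third, ATP5MC3, had 172 and 178 against 162 and 167 CPM and was not called. ATP5F1B, the catalytic subunit, fell by 0.24, from 1157 and 1179.5 to 976 and 997 CPM, and its partner ATP5F1A fell by 0.15, a call lost without BI-D1870 replicate 2. ATP5ME of the membrane part rose by 0.41 and ATP5PD of the peripheral stalk by 0.29. Of the 43 nuclear calls, 28 held under each alternative and with each library left out, and 41 under the alternatives that kept every library.

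**Figure D3:**
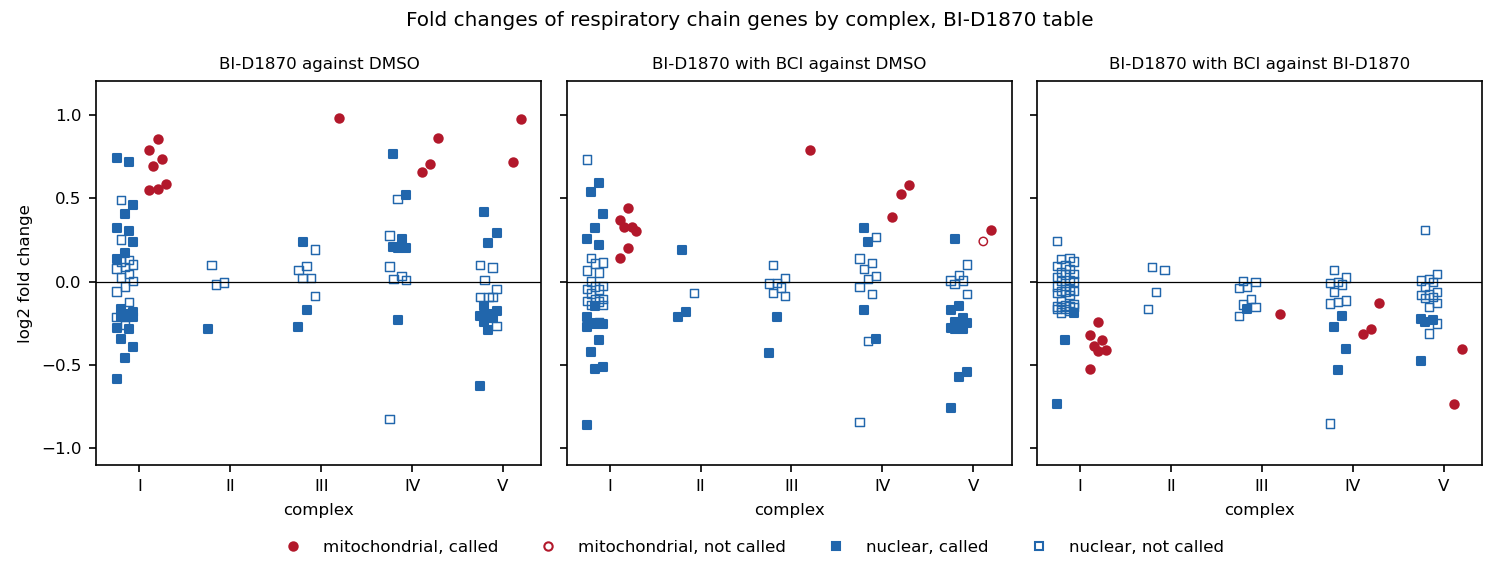
Log2 fold changes of the tested members by complex in the 3 comparisons of the 24 h experiment, with mitochondrial and nuclear genes in separate colours and filled points for genes called by edgeR. With BI-D1870 against DMSO the mitochondrial genes lie from 0.55 to 0.98, while nuclear members of every complex lie on both sides of 0.

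The other genes of the pathway, taken from fixed lists, moved both ways with BI-D1870. Of 48 assembly factors, 9 rose and 12 fell, among them COX18, which inserts MT-CO2 into the membrane, by -0.85, and the complex III factor TTC19 by 0.41. Of 32 genes of mitochondrial transcription, RNA processing and RNA stability, 4 rose and 12 fell, including TBRG4, an RNA-binding factor of mitochondrial mRNAs (-0.65), the mitochondrial topoisomerase TOP1MT (-0.38) and the DNA polymerase POLG (0.35). Of 14 regulators of mitochondrial biogenesis, 2 rose and 6 fell, with MYC at -0.80, the coactivator PPARGC1B at -0.64 and the deacetylase SIRT1 at 0.74. Of 16 cytochrome c and coenzyme Q genes, 5 rose and 4 fell, and of 19 tricarboxylic acid cycle genes, 4 rose and 8 fell, the latter including DLAT of the pyruvate dehydrogenase complex (-0.52). Every list but that of cytochrome c and coenzyme Q genes held more falls than rises, beside 22.8% of all genes called higher and 24.3% lower.

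BI-D1870 together with BCI gave a smaller mitochondrial rise against the same DMSO libraries and more falls among nuclear members. The mitochondrial median was 0.33 and the nuclear median -0.07. Of the 13 mitochondrial members 12 rose, and of the nuclear members 10 rose and 29 fell, beside 22.6% of all genes called higher and 24.3% lower. This comparison shares its DMSO libraries with the preceding one, so the values stand side by side and are not independent.

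MT-CYB rose by 0.79 (SE 0.04, adjusted p = 1.13e-11), MT-CO2 by 0.58, MT-CO1 by 0.53 and MT-ND2 by 0.44. The remaining complex I genes rose by 0.14 to 0.37, and MT-CO3 and MT-ATP6 rose by 0.39 and 0.31. The smallest of these, MT-ND6 at 0.14 (adjusted p = 0.0343), had 809 and 699.5 CPM, which overlap the DMSO values of 709 and 661. Its call was lost without DMSO replicate 2 (0.09), without combination replicate 1 (0.03) and with DESeq2. MT-ATP8, at 105 and 71.5 CPM, was not called (0.24, adjusted p = 0.173), and its libraries overlapped those of DMSO. The other 11 mitochondrial members lay above DMSO without overlap, as did 35.1% of all genes tested, and 36.4% lay below.

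Among nuclear members the complex I subunit NDUFB8, a low-abundance gene here, had 5.66 and 5.67 CPM with DMSO, 5.58 and 4.84 with BI-D1870, and 3.03 and 3.20 with the combination, a fall of 0.86 against DMSO (SE 0.14, adjusted p = 4.34e-05). The BI-D1870 libraries were also below DMSO, but that difference was not called (-0.12, SE 0.14, adjusted p = 0.506). ATP5MC1 fell by 0.76, ATP5MF by 0.57 and ATP5MD by 0.54, the last pair being small subunits of the membrane part of the ATP synthase. In complex V 12 members fell and 1, ATP5PD, rose. NDUFA9 fell by 0.52 and UQCR10 by 0.43. NDUFA2, NDUFC2 and NDUFV3 rose by 0.59, 0.54 and 0.41, as did COX7A2L by 0.32. COX6A1 rose by 0.24, a call lost without DMSO replicate 2 and without combination replicate 1. In complex II, SDHC, a membrane anchor, rose by 0.19, and SDHB fell by 0.21, while SDHD fell by 0.18, a call lost when any 1 library of either group was left out.

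On the fixed lists, 12 of 48 assembly factors rose and 14 fell, near the 22.6% and 24.3% of all genes. Of 32 genes of mitochondrial transcription and RNA processing 7 rose and 15 fell, and of 14 biogenesis regulators 2 rose and 6 fell. Of 16 cytochrome c and coenzyme Q genes 5 rose and 6 fell, and of 19 tricarboxylic acid cycle genes 5 rose and 10 fell.

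Adding BCI to BI-D1870 was also tested directly, combination against BI-D1870 alone, and here every member that changed fell. All 13 mitochondrial members fell, with a median of -0.35, and of the nuclear members none rose and 12 fell, with a median of -0.07. Over all genes only 2.22% were called higher and 2.48% lower. The counts of rising nuclear members by other tools were also 0, and 47 members had an unadjusted p under 0.05 with edgeR. In all 13 mitochondrial genes both combination libraries lay below both BI-D1870 libraries, as they did in 23% of all genes tested, and they lay above in 23.8%.

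MT-ND3 fell by 0.52 (SE 0.06, adjusted p = 2.56e-05), MT-ND6 by 0.42, MT-ND4 and MT-ATP6 by 0.41, and MT-ND4L by 0.39. MT-ND2, MT-ND1, MT-CO3, MT-CO2 and MT-ND5 fell by 0.35 to 0.24. MT-ATP8 had the largest value, a fall of 0.74 (SE 0.14, adjusted p = 0.00275), which was no longer called with DESeq2, without BI-D1870 replicate 2 or without combination replicate 2. MT-CYB and MT-CO1 fell least, by 0.19 and 0.13 (adjusted p = 0.0102 and 0.0233), and both calls were lost without BI-D1870 replicate 1, BI-D1870 replicate 2 or combination replicate 2. The other 10 calls held under each alternative and with each library left out.

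The mitochondrial ribosomal RNAs did not move with the mRNAs in this comparison. MT-RNR1, the small ribosomal RNA, had 3303 and 2952 CPM with BI-D1870 and 4184 and 4543 with the combination, a rise of 0.48 (adjusted p = 0.000291). MT-RNR2, the large ribosomal RNA, had a log2 fold change of -0.07 (adjusted p = 0.459). Against DMSO, MT-RNR1 rose by 1.17 with BI-D1870 and 1.65 with the combination, and MT-RNR2 by 0.97 and 0.90. So MT-RNR1 was highest with the combination, where the 13 mitochondrial members were below BI-D1870 alone.

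The 12 nuclear members that fell on adding BCI were NDUFB8, NDUFB1 and NDUFB9 of complex I, UQCRH of complex III, COX6A1, COX8A, COX7A2 and COX7C of complex IV, and ATP5MF, ATP5F1E, ATP5PF and ATP5MPL of complex V. COX6A1 fell by 0.53 (SE 0.06, adjusted p = 5.54e-05), ATP5MF by 0.48 and COX8A by 0.40. NDUFB8 fell by 0.74 (adjusted p = 0.00398), a call lost without BI-D1870 replicate 1 or combination replicate 1. COX6A1 and COX8A had risen with BI-D1870. The combination values of COX6A1, 32.1 and 30.8 CPM, lay between those of the other groups, and those of COX8A, 37.6 and 42.5 CPM, lay below BI-D1870 and overlapped DMSO. The calls for COX6A1, ATP5MF, COX8A and COX7A2 held with each library left out, and the other 8 did not. On the lists, 1 assembly factor rose and 2 fell, and 1 transcription or RNA-processing gene rose and 1 fell. Single genes of the other lists fell, namely MYC (-0.17), the electron carrier cytochrome c CYCS (-0.31) and the pyruvate carboxylase PC (-0.34). These calls stand beside 2.22% of all genes called higher and 2.48% lower.

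No member was called with BCI alone at either time. At 4 h, 0 of 95 members were called by edgeR, and 0 by DESeq2 or limma-voom, although 4.8% of all genes were called higher and 5.94% lower. The number with an unadjusted p under 0.05 was 4 by edgeR, 3 by DESeq2 and 4 by limma-voom. The medians were -0.04 for the mitochondrial and -0.02 for the nuclear members, beside 0.02 over all genes. MT-CYB had 2019.8 and 2062 CPM with DMSO and 1774 and 2363 with BCI (0.02, SE 0.24), and MT-ND4 had 3872 and 3995 against 3109 and 4368 (-0.07, SE 0.15). MT-CO2 had 3635 and 3699 against 3005 and 3966 (-0.07, SE 0.17). In these 3 genes, and in the other 10 mitochondrial members, the BCI libraries overlapped the controls, with BCI replicate 2 higher than replicate 1, so changes of the size of these errors could not be detected.

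The 4 nuclear members with an unadjusted p under 0.05 at 4 h, named after their values were seen, were ATP5MC1 (-0.29, adjusted p = 0.0762), NDUFS3 (-0.24), NDUFB4 (0.20) and COX6B2 (-1.47), the last at 0.438 CPM or less in every library of the table. Their adjusted p was above the threshold with edgeR. Genes outside the members were called at this time, beside 4.8% of all genes called higher and 5.94% lower. Among 48 assembly factors, 4 fell, including COA7 (-0.71), NDUFAF4 (-0.65) and COA4 (-0.49). Of the 32 transcription and RNA-processing genes 8 fell and none rose, among them the helicase TWNK (-0.75), the RNA polymerase POLRMT (-0.66) and the tRNA-processing nuclease ELAC2 (-0.60). Of 14 biogenesis regulators 4 fell, including PPARGC1B (-1.11), PPRC1 (-0.74) and the nuclear receptor ESRRA (-0.42), and of 19 tricarboxylic acid cycle genes 3 fell, namely PDHB (-0.47), DLAT (-0.43) and OGDH (-0.35). None of the 16 cytochrome c and coenzyme Q genes was called.

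At 48 h of BCI no gene of the genome was called by edgeR (0% higher and 0% lower), and 0 members had an unadjusted p under 0.05 by edgeR, DESeq2 or limma-voom. The mitochondrial median was -0.06 and the nuclear median 0.03. MT-CYB had 1271 and 2064 CPM with DMSO and 1208 and 1847 with BCI, and MT-CO2 had 3066 and 3947 against 2938 and 3917. Replicate 2 was the higher library in both groups. The difference between the responses at 48 h and 4 h was tested as an interaction and called 0 members, with 2 at an unadjusted p under 0.05 by edgeR, 0 by DESeq2 and 3 by limma-voom, beside 2.08% and 1.37% of all genes called in either direction. On the lists, that difference was called for 3 assembly factors, 5 transcription and RNA-processing genes, 2 biogenesis regulators and 1 tricarboxylic acid cycle gene, all with a higher response at 48 h than at 4 h.

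The DMSO controls of that experiment differed more with time than with BCI. Between 4 h and 48 h in DMSO, 26 nuclear members were lower at 48 h and 1 was higher, with a nuclear median of -0.20, beside 0.04 over all genes. No mitochondrial member was called by edgeR, DESeq2 or limma-voom, 1 had an unadjusted p under 0.05 with edgeR, and their median was -0.06. Over all genes 13.5% were called higher and 13.2% lower. With all libraries in the fit, the nuclear members had more falls (26 of 82) and fewer rises (1 of 82) than all genes did. Most of these calls did not hold with each library left out, so the excess of falls depends on single libraries. In complex I 11 fell and 1 rose, and in complexes II, III, IV and V 1, 2, 5 and 7 fell. The direction of the mitochondrial genes was mixed: 5 were above without overlap, 1 was below, and 7 overlapped, beside 32.7% of all genes above and 30.2% below, with log2 fold changes from -0.29 for MT-CYB to 0.37 for MT-CO1 and MT-ND6.

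NDUFA9 had 21.2 and 20.5 CPM at 4 h and 13.1 and 12 at 48 h, a fall of 0.73 (SE 0.13, adjusted p = 0.00319). NDUFB4, an accessory subunit of the complex I membrane arm, had 56.4 and 52.7 against 35.3 and 36.2 CPM, a fall of 0.61. NDUFS6, which carries a zinc site of complex I, had 132 and 134 against 83.3 and 93.0 CPM, a fall of 0.59. For these genes the times did not overlap. COX5A, a complex IV subunit on the matrix side, fell by 0.49, from 243 and 236 to 169 and 172 CPM, and NDUFA6 fell by 0.52. These 5 calls held under each alternative and with each library left out. The other 22 did not: ATP5MC1 (-0.49) was lost without 4 h DMSO replicate 2, NDUFB9 (-0.49) without 4 h DMSO replicate 1, and the single rise, NDUFB5 (0.30, adjusted p = 0.0375), without 4 h DMSO replicate 1 or 2 or 48 h DMSO replicate 2. The number of members called was 7 without 4 h DMSO replicate 1 and 11 without 4 h DMSO replicate 2, beside 11.8% and 11.9% of all genes in either direction.

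The lists are read beside the 13.5% of all genes called higher and 13.2% lower in the same comparison. Of 32 transcription and RNA-processing genes 2 rose and 13 fell, including the RNA-stability factor SLIRP (-0.78), the single-stranded DNA binding protein SSBP1 (-0.70) and the exonuclease subunit PNPT1 (-0.67). Of 14 biogenesis regulators 1 rose, SIRT3 (0.63), and 6 fell, including the transcription factor NRF1 (-1.0) and PPARGC1B (-0.80). Of 48 assembly factors 6 rose and 8 fell, near the shares of all genes. Of 16 cytochrome c and coenzyme Q genes 4 rose and 5 fell, with CYCS at -0.90 and the atypical kinases of coenzyme Q synthesis COQ8A and COQ8B at 0.64 and 0.65. Of 19 tricarboxylic acid cycle genes none rose and 6 fell, MDH2 by 0.52.

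**Figure D4:**
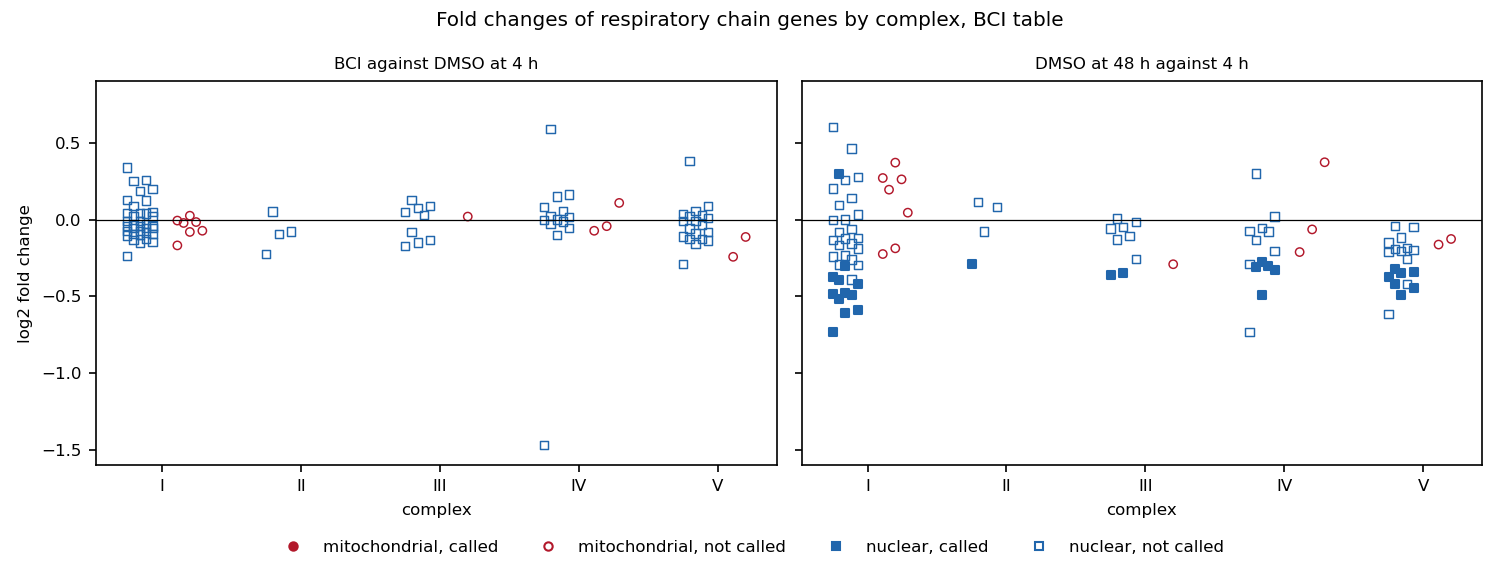
Log2 fold changes of the tested members by complex for BCI against DMSO at 4 h and for DMSO at 48 h against 4 h. Mitochondrial and nuclear genes are in separate colours, with filled points for called genes. No member is called with BCI at 4 h, and 26 nuclear members are called lower at 48 h in DMSO.

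In the JAK2-inhibitor-persistent populations the mitochondrial mRNAs were lowest in FedP. Against RuxP all 13 were lower in both FedP libraries, with a median log2 fold change of -1.20, and against parental cells 12 of 13 were lower without overlap, with a median of -0.89. Of all genes tested, 35.7% were lower without overlap against RuxP and 30% against parental cells, where 33% were higher. The spread in this table was large, and few of these differences passed the test: MT-ND5 and MT-CO2 against parental cells, and MT-CO2 against RuxP. The nuclear median was 0.12 against parental cells and 0.23 against RuxP, beside 0.01 and 0.04 over all genes. The 2 FedP comparisons share the FedP libraries, and both comparisons with parental cells share the parental libraries.

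MT-ND5 had 14698 and 24959 CPM in parental cells, 22024 and 18009 in RuxP, and 7760.2 and 7829 in FedP. It fell by 1.35 in FedP against parental cells (SE 0.26, adjusted p = 0.0361), while against RuxP the value was -1.36 (adjusted p = 0.0684). MT-CO2 had 13173 and 16205.5 CPM in parental cells, 16961 and 16966 in RuxP, and 9275 and 8957 in FedP, a fall of 0.69 against parental cells (adjusted p = 0.0405) and 0.90 against RuxP (adjusted p = 0.0445). The FedP libraries of both genes lay below the other 4. The MT-ND5 call was lost without FedP replicate 1 (adjusted p = 0.194) or FedP replicate 2 (0.185), and the MT-CO2 call against parental cells likewise (0.295 and 0.325). The MT-CO2 call against RuxP was lost whichever of the 4 libraries was left out, with adjusted p from 0.103 to 0.368. With DESeq2, 11 mitochondrial members were called lower in FedP than in parental cells, beside 9.27% of all genes, and 12 lower than in RuxP, beside 13.6%.

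Differences in the other mitochondrial members were not called by edgeR. MT-ND6 had 4193 and 11341 CPM in parental cells, 9615 and 6215 in RuxP, and 1929.7 and 1982 in FedP, with the largest value against parental cells, -1.99 (SE 0.47, adjusted p = 0.0622). MT-CYB had 5042 and 7333 CPM in parental cells, 8114 and 7408.5 in RuxP, and 3372 and 3384 in FedP. MT-CO3 differed from the rest: with 5034 and 6093 CPM in parental cells and 5326 and 5089 in FedP, it overlapped (-0.10, SE 0.14). Its level relative to MT-ATP6, which precedes it on the same precursor and shares 1 base with it, was 54.4 and 35.5 counts per 100 in parental cells, 30.5 and 41.4 in RuxP, and 79.8 and 77.0 in FedP, against 101 to 134 in the other tables. MT-ND6 per 100 counts of MT-ND5 was 28.5 and 45.4 in parental cells, 43.7 and 34.5 in RuxP, and 24.9 and 25.3 in FedP. The mitochondrial ribosomal RNAs were also lowest in FedP, at 2.76% and 2.99% of counts, against 3.26% and 5.18% in parental cells and 6.64% and 5.62% in RuxP, and the part of RNA quality in this was not tested.

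**Figure D5:**
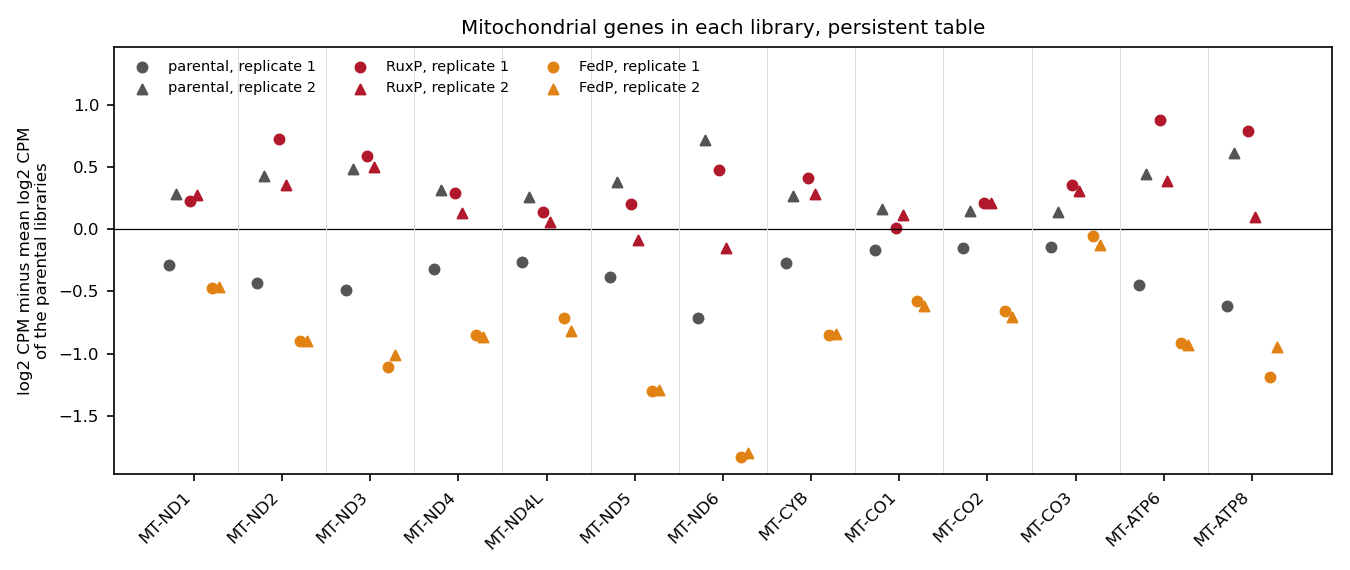
Level of each mitochondrially encoded member in the 6 libraries of parental, RuxP and FedP cells, with 1 point a library. The vertical axis is log2 CPM minus the mean log2 CPM of the parental libraries. The parental libraries are spread (MT-ND6 at 4193 and 11341 CPM before this subtraction). Both FedP libraries lie below the others for all genes but MT-CO3.

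RuxP cells were not distinguished from parental cells in any mitochondrial member. The median was 0.22, none was called by edgeR, DESeq2 or limma-voom, 9 of 13 overlapped and 4 were above, beside 24% of all genes above and 23.9% below. Over all genes 4.28% were called higher and 2.17% lower in RuxP against parental cells, 3.84% and 2.79% in FedP against parental cells, and 0.232% and 1.16% in FedP against RuxP. The number of members with an unadjusted p under 0.05 in RuxP against parental cells was 9 by edgeR, none of them mitochondrial, 14 by DESeq2 and 10 by limma-voom. Leaving out parental replicate 2, the library with the higher mitochondrial share, 8 mitochondrial members were called higher in RuxP, beside 12.8% of all genes, and without parental replicate 1 none was. Without parental replicate 2 the FedP comparison called 7 mitochondrial members lower, beside 3.62% of all genes, and without parental replicate 1 it called 12, beside 15.7%. The difference in FedP kept its direction in the median with either parental library left out, at -0.50 and -1.20.

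The only nuclear member called in the persistent lines was NDUFA4L2, a hypoxia-inducible paralog of the complex IV subunit NDUFA4. It had 1.18 and 1.05 CPM in parental cells, 3.18 and 3.46 in RuxP, and 6.60 and 5.93 in FedP, and the groups did not overlap. It rose by 1.57 in RuxP (SE 0.24, adjusted p = 0.0179) and by 2.49 in FedP (SE 0.24, adjusted p = 0.00568). The RuxP call was lost without either RuxP library (adjusted p = 0.0709 and 0.0540) and the FedP call without either FedP library (0.0816 and 0.0648). NDUFA4 itself had a log2 fold change of -0.52 in RuxP and -0.19 in FedP and was not called. FedP against RuxP called no nuclear member by edgeR, where 28 had an unadjusted p under 0.05, and 45 of 82 were above RuxP without overlap and 20 were below, beside 40.3% and 35.7% of all genes tested. DESeq2 called 14 nuclear members higher and 4 lower, beside 15.1% and 13.6% of all genes. On the lists, the isocitrate dehydrogenase IDH2 rose by 1.33 in RuxP and 2.14 in FedP, SUCLG2 of succinyl-CoA synthetase rose by 1.51 in RuxP, the exonuclease MGME1 rose by 0.90 in RuxP, and REXO2, another mitochondrial exonuclease, fell by 0.78 in FedP. No other gene of the 5 lists was called in these comparisons, and none in FedP against RuxP.

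Across the 10 comparisons 26 of the 87 nuclear members were never called, 16 were called once, 29 in 2, 15 in 3 and only COX6A1 in 4. The 26 include NDUFC2-KCTD14, COX6A2, COX7B2 and ATP5MF-PTCD1, which were not tested in any table. The same count over all genes was not made, so these numbers have no background beside them. With BI-D1870 against DMSO alone, 22.8% of all genes were called higher and 24.3% lower. Several of these comparisons share libraries. Subunits with tissue-restricted forms were measured mostly as their common form: COX6A1 ran from 18.9 to 47.1 CPM and the muscle form COX6A2 reached at most 0.116, COX6B1 ran from 52.7 to 134.7 and the testis form COX6B2 reached at most 0.475, COX7A2 ran from 39.2 to 88.2 and COX7A1 reached at most 0.583, and COX8A ran from 6.80 to 58.0 and COX8C reached at most 0.484. COX7B2 had no count in any library. In every table there were 5 members that were too low or not listed and so not tested. COX6A2, COX7B2, NDUFC2-KCTD14 and ATP5MF-PTCD1 were among them in every table, with COX8C in the first 2 tables and UQCRHL in the third. UQCRHL and ATP5MGL are intronless copies of UQCRH and ATP5MG, and their values, like those of the read-through genes, are uncertain because reads can be shared.

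A few members had levels that differed between tables, which were prepared separately. NDUFV2, a core subunit of the NADH-binding module, had 0.294 to 1.07 CPM in the first 2 tables and 24.4 to 34.5 CPM in the persistent-line table. UQCRB, a complex III subunit, had 122 to 169 CPM in the first 2 tables and 349 to 721 in the third. NDUFA4L2 had 3.79 to 5.55 CPM in the BCI table and 0.150 to 0.420 in the BI-D1870 table, and 1.05 to 6.60 in the persistent-line table. The sources used here do not say how annotation or counting differed between the tables, so these levels cannot be told apart from differences of preparation.

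RefSeq promoter sequences (GRCh38.p14, the 250 bases before each start) could be matched for 67 of the 87 nuclear members, with 80 promoters. The letters of the nuclear respiratory factor NRF1, GCGCA and GCGC with any single base between them on either strand, occurred in 14 of the 80 (17.5%), against 5.07% of all 35116 promoters, and those of the ETS family, CCGGAAG on either strand, in 18 of the 80 (22.5%), against 8.52%. A match to one motif can share only its end bases with a match to the other. Of the 67 matched members, 14 had the first and 17 the second, and SDHD and UQCR11 had both. NDUFB4 and NDUFA9 fell from 4 h to 48 h in DMSO, and COX6A1 and COX8A rose with BI-D1870 and fell on adding BCI, and their promoter stretches are shown because each holds 1 of these motifs close to the start. The 4 were chosen after their values were seen. All lie on the plus strand, and capitals mark the motif, in the reverse complement for the last 3.
NDUFB4, chr3:120596152-120596211, NRF1 letters 159 to 150 bases before the start: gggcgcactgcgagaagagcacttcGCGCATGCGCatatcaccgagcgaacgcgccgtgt
NDUFA9, chr12:4649009-4649068, NRF1 letters 80 to 71 bases before the start: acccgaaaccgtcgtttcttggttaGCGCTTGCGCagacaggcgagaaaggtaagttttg
COX6A1, chr12:120438072-120438112, ETS letters 16 to 10 bases before the start: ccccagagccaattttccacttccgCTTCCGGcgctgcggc
COX8A, chr11:63974577-63974619, ETS letters 18 to 12 bases before the start: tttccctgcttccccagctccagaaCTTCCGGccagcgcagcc
Members with and without a motif both rose and fell. With BI-D1870, of 13 tested members with the NRF1 letters 2 rose and 2 fell, and of 50 matched members without them 14 rose and 17 fell, while with the ETS letters 4 of 17 rose and 5 fell, against 12 and 14 of 46 without. On adding BCI, 4 of 17 members with the ETS letters fell, COX6A1 and COX8A among them, against 5 of 46 without. With the NRF1 letters 0 of 13 fell, against 9 of 50 without, beside 2.48% of all genes called lower. From 4 h to 48 h in DMSO, 5 of 13 members with the NRF1 letters fell, against 15 of 50 without. With the ETS letters 3 of 17 fell, against 17 of 46 without, beside 13.2% of all genes called lower. No difference between these groups was tested. A match describes letters in a window and does not show that a factor binds there.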

How the data were processed

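RNA from 20 HEL libraries in 10 groups of 2 was sequenced, and the deposited tables hold whole-number counts per gene that the authors made. The submitters' processing notes name bcl2fastq, the aligner STAR 2.5.1a, edgeR and the build GRCh38. Not given in the sources used here are the library kit, the annotation release, and the counter with its strand setting. Of counts from 1 to 20, 59.8% to 73.1% were even, so a read pair may have been counted as more than 1 read, and how pairs were counted is not given. Lines repeated for the same gene (116, 116 and 130 in the BCI, BI-D1870 and persistent-line tables) held the same counts and were used once. The BCI table heads its later columns with another time than the labels, and the labels' 48 h was used.

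Each table was fitted alone with edgeR 4.0.16 in R 4.3.3: filterByExpr by group with a minimum count of 10, TMM scaling, and the quasi-likelihood test with all groups in 1 fit and no replicate block. This tested 21908, 21328 and 15924 genes, among them 95 members in each table. P-values were adjusted by Benjamini-Hochberg over all genes of the table, with a call at an adjusted p under 0.05. The biological coefficient of variation was 13.3%, 5.01% and 26.9%, on 4, 3 and 3 residual degrees of freedom, so the BI-D1870 table could show smaller changes than the persistent-line table. CPM are computed from the deposited counts and TMM-scaled totals. SE is the size of the log2 fold change divided by the square root of the quasi-likelihood F statistic. Medians over members are descriptions without a test. Alternatives were DESeq2 1.42.0, limma-voom (limma 3.58.1), DESeq2 size factors, scaling without mitochondrial genes, no filter, a stricter filter of 1 CPM in every group mean, a replicate block, only the groups compared, and each library left out. Exon lengths and positions come from GENCODE 29.

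The members and gene lists were chosen with earlier results of these data known. The genes named are all mitochondrial members, up to 4 nuclear members with the largest rise and 4 with the largest fall among those called in a comparison, the most abundant nuclear member of each complex, members called most often, tissue-specific paralogs, and up to 3 called genes with the lowest p of each list. Other genes were named after their values were seen. Some genes that the rule or the marker list would name are not reported here.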

Additional observations from a re-analysis of the deposited data

How the results depend on the processing

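The number of members called stayed within 1.5 times the reported count in 91 recalculations and moved further in 32, and single genes kept direction and call in 2140 of 2400. For BCI at 4 h, 0 members were called, 1 with the replicate block and 5 when only the compared groups were fitted. For DMSO at 48 h against 4 h the count of 27 became 17 with only the compared groups and ran from 7 to 27 with each library left out, and for the combination against BI-D1870 the 25 ran from 16 to 20. For RuxP against parental cells the count of 1 became 5 with DESeq2 and 0 with the replicate block or only the compared groups, with a range of 0 to 21 when libraries were left out. For FedP against parental cells the count of 3 became 13 without the filter, 17 with DESeq2, and 1 with the block or only the compared groups, with a range of 0 to 41. For FedP against RuxP the count of 1 became 2 with DESeq2 size factors, 23 without the filter, 0 with the stricter filter, 30 with DESeq2, 4 with limma-voom, 0 with the block and 46 with only the compared groups, and it was 0 without any single FedP or RuxP library. The causes were not tested. Over all genes, DESeq2 called 2469, 2573 and 3680 genes in these 3 comparisons against 1026, 1055 and 222 with edgeR, and 1440 against 757 for the difference between BCI responses.

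The mitochondrial minus nuclear median moved with single libraries for BCI at 4 h (-0.29 to 0.22), the difference between times (-0.30 to 0.21), RuxP against parental cells (-0.092 to 0.64) and FedP against parental cells (-1.45 to -0.61). It kept its direction in every recalculation for BI-D1870 against DMSO. With libraries left out of RuxP against parental cells, the sign reversed for MT-ATP8 (-0.11 to 1.10), MT-ND6 (-0.50 to 0.92), MT-ND5 (-0.30 to 0.45), MT-ND4 (-0.086 to 0.53), MT-ND4L (-0.15 to 0.36), MT-CO1 (-0.086 to 0.23) and MT-ND1 (-0.023 to 0.54), each without parental replicate 1, and MT-CO3 reversed in FedP against parental cells (-0.25 to 0.049). Left with 1 library, a group is assumed to vary like the others.

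Samples with the same replicate number did not deviate together in every pair of groups (correlations from -0.22 to 0.32), so the numbers were not taken to pair the samples. The highest correlation, 0.32, was between DMSO and BCI at 48 h, and the main fit did not pair those libraries either. The fit of only the compared groups was not run for the difference between BCI responses, which needs all 4 groups. With 2 libraries a group, small changes in low-abundance members were not detectable.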
